A study of Homo sapiens with 16 samples.

Results

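RAD21 and SMC1, 2 subunits of the cohesin ring, were compared with each other at genomic sites with a region of each. The comparison was made separately in HCT116 and in DKO cells. A site was a region of the RAD21 table that shared at least 1 bp with a region of the SMC1 table, and where several SMC1 regions overlapped, the one with the longest overlap was taken. This gave 99724 sites, 55.4% of the 180061 RAD21 regions, out of 1255311 regions in the 7 tables of the series. Regions had been called in either line or in both, so a subunit need not have been called in the line ranked. At 44.8% of the sites both regions had been called in both lines. Within each line the normalized read density of each subunit was turned into a percentile over these sites, and the RAD21 percentile minus the SMC1 percentile is called the rank difference. It is above 0 where a site stands higher in the RAD21 order than in the SMC1 order.

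HCT116 is a human colorectal carcinoma line, and DKO is its derivative with the DNA methyltransferase genes DNMT1 and DNMT3B disrupted. Both lines were grown in the same medium, fixed with formaldehyde and profiled by chromatin immunoprecipitation with sequencing (ChIP-seq), a method that reads the DNA bound by a protein. The 4 libraries ranked here were SMC1 and RAD21 in HCT116 and SMC1 and RAD21 in DKO, none of them treated. The other 5 targets, each in both lines, were the DNA-binding protein CTCF, histone H3 acetylated at lysine 27 (H3K27Ac), and RNA polymerase II as Pol2Ser5, Pol2Ser2 and TotalRNAPol2. There was 1 library per line and target, so no difference below has a replicate check and no test was made. Whether the DKO cells came from 1 clone is not given in the sources used here.

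Cohesin is a ring built from SMC1, SMC3 and the kleisin RAD21, which closes the ring, with a STAG subunit bound to RAD21. It is loaded on chromatin by NIPBL, moves along the fibre while extruding a loop, and is held at sites bound by CTCF, so that CTCF sites carry most of the sharp cohesin peaks in mammalian cells. Cohesin is also known at active enhancers and promoters, which H3K27Ac marks, and along transcribed genes. Pol2Ser5 is associated with initiating polymerase and Pol2Ser2 with elongating polymerase. RAD21 and SMC1 were precipitated with different antibodies, so a difference between the subunits cannot be told apart from a difference between the antibodies.

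RAD21 and SMC1 ordered the sites in nearly the same way in both lines. Spearman's rho of their densities was 0.85 in HCT116 and 0.83 in DKO over the 99724 sites, given as a description, since all sites share the same libraries. The median size of the rank difference was 7.95 percentile points in HCT116 and 8.70 in DKO. The sites within 10 points of 0, called balanced below, were 57.3% of all in HCT116 and 54.5% in DKO. The sites thus followed the diagonal, most tightly at the highest levels of both subunits.

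The reads behind these ranks were modest. In HCT116 the median site had 44 RAD21 reads, with 18 at the 10th and 172 at the 90th percentile of sites, and 41 SMC1 reads, with 21 and 107. In DKO the medians were 63 RAD21 reads, with 32 and 196, and 60 SMC1 reads, with 32 and 143. RAD21 was spread more widely over the sites than SMC1: the 90th percentile of its density was 8.27 times the 10th in HCT116 and 6.57 times in DKO, against 4.97 and 4.31 times for SMC1. A given number of reads therefore moves an SMC1 percentile further than a RAD21 percentile.

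The 2 orders were more alike at CTCF sites than elsewhere in both lines. At the 81040 sites that overlapped a CTCF region rho was 0.87 in HCT116 and 0.83 in DKO. At the 18684 sites without a CTCF region it was 0.72 in HCT116 and 0.78 in DKO. Sites without CTCF also had fewer reads, and the part of depth in this difference was not tested. The paired regions lay close together, with a median of 51 bp between their summits, 7 bp at the 10th and 295 bp at the 90th percentile. Where the summits were within 50 bp of each other, rho over all sites was 0.92 in HCT116 and 0.90 in DKO.

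**Figure D1:**
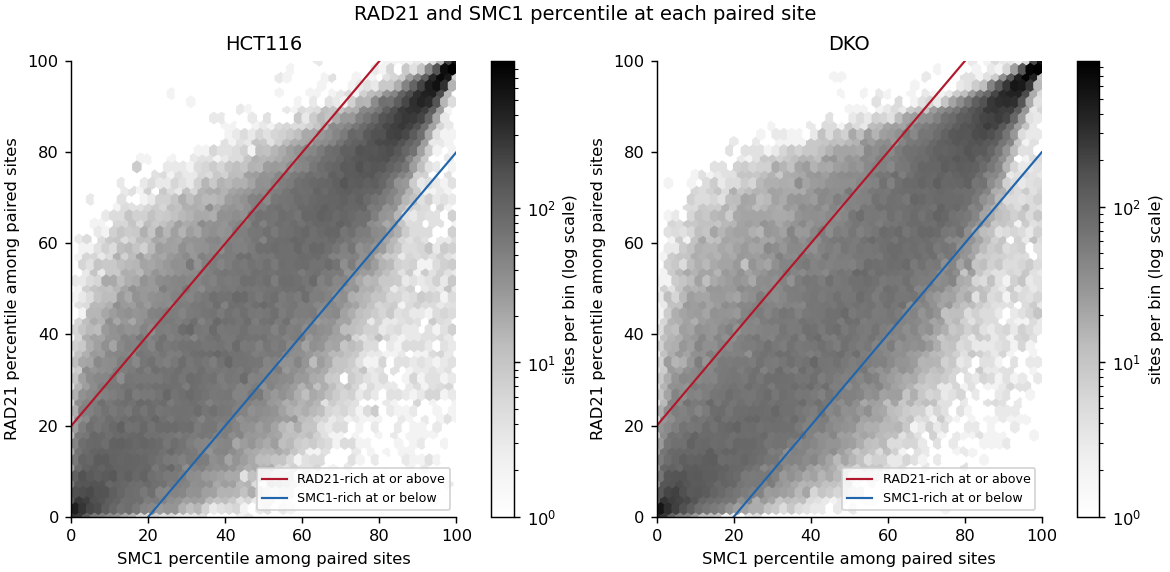
Each panel shows the 99724 paired sites of 1 line, with the SMC1 percentile on the horizontal axis, the RAD21 percentile on the vertical axis and the number of sites per bin as grey on a log scale. The coloured lines mark a rank difference of 20 percentile points in each direction; rho was 0.85 in HCT116 and 0.83 in DKO, and the cloud narrows at the upper right corner.

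Sites were called RAD21-rich or SMC1-rich where the rank difference reached 20 percentile points in that direction. In HCT116 9094 sites, 9.12 percent, were RAD21-rich, and 9281 sites, 9.31 percent, were SMC1-rich. In DKO 10821 sites, 10.9 percent, were RAD21-rich, and 10303 sites, 10.3 percent, were SMC1-rich. These classes are cuts of a continuous measure: in HCT116 792 sites lay between 20 and 21 points on the RAD21 side and 863 between 19 and 20, against 765 and 785 on the SMC1 side. In DKO the same counts were 788 and 811 on the RAD21 side and 792 and 904 on the SMC1 side.

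Part of each class was within counting error. The share of RAD21 among the reads of a site left out the share that equal ranks would give, by its exact Clopper-Pearson 95% interval, at 67.2% of the RAD21-rich and 63.9% of the SMC1-rich sites in HCT116, and at 74.7% and 64.6% in DKO. Among balanced sites it did so at 7.89% in HCT116 and 9.30% in DKO. The classes were cut by ranks of the same reads, so these shares follow in part from the cut. A RAD21-rich site had a median of 50 RAD21 and 28 SMC1 reads in HCT116 and 75 and 44 in DKO. An SMC1-rich site had 27 RAD21 and 46 SMC1 reads in HCT116 and 47 and 69 in DKO. Both classes stood at middle levels, with a median mean percentile of both subunits between 40.02 and 44.8. A site with both percentiles near the bottom or near the top cannot reach the rank difference of a rich site. Middle levels thus follow in part from the cut, and these medians cannot show whether either class avoids the weakest sites.

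CTCF, the protein that holds cohesin in place, was more frequent at RAD21-rich than at SMC1-rich sites in both lines. In HCT116 88.2% (Wilson 95% interval 87.5 to 88.9) of the RAD21-rich sites overlapped a CTCF region, against 84.5% of the balanced and 64.2% (63.3 to 65.2) of the SMC1-rich sites. In DKO the shares were 96.5% (96.1 to 96.8), 83.0% and 62.7% (61.8 to 63.6). Over all pairs it was 81.3%. The gap from RAD21-rich to SMC1-rich sites was thus 24.0 percentage points in HCT116 and 33.8 in DKO. These intervals cover counting error only, since neighbouring sites share reads and are not replicates.

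H3K27Ac, the mark of active enhancers and promoters, went the other way, and much further in DKO than in HCT116. In HCT116 48.4% (47.4 to 49.5) of the RAD21-rich sites overlapped an H3K27Ac region, 56.7% of the balanced sites and 62.4% (61.4 to 63.4) of the SMC1-rich sites. In DKO the shares were 25.1% (24.3 to 25.9), 59.3% and 72.8% (72.0 to 73.7). The RAD21-rich share minus the SMC1-rich share was -14.0 points in HCT116 and -47.7 in DKO. With 1 library per line and subunit, this difference between the lines was not tested. The DKO libraries also had more reads per site, as given above, and the part of depth in it was not tested.

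RNA polymerase II increased from RAD21-rich to SMC1-rich sites in all 3 tables in DKO, but in HCT116 not in all of them. A region of any polymerase table was present at 49.6% of the RAD21-rich, 55.8% of the balanced and 58.1% of the SMC1-rich sites in HCT116, and at 29.6%, 57.9% and 66.9% in DKO. Pol2Ser5, the initiating form, was at 40.1% and 39.5% in HCT116, with intervals of 39.1 to 41.1 and 38.5 to 40.5 that overlap, and at 20.9% and 50.5% in DKO. Pol2Ser2, the elongating form, was at 34.2% and 36.1% in HCT116 and at 19.5% and 44.5% in DKO. TotalRNAPol2 was at 41.7% and 50.7% in HCT116 and at 22.0% and 60.1% in DKO. The balanced sites had 42.9% Pol2Ser5, 38.1% Pol2Ser2 and 48.1% TotalRNAPol2 in HCT116, and 44.3%, 38.6% and 49.9% in DKO. In HCT116 both rich classes thus lay below the balanced sites for Pol2Ser5 and Pol2Ser2, and only TotalRNAPol2 had the order of H3K27Ac.

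The overlaps above use regions called in either line. With regions that the authors called in the ranked line, a choice made after the data were seen, the polymerase gap was -39.0 points in DKO but only -1.69 points in HCT116. In HCT116 Pol2Ser5 was then more frequent at RAD21-rich sites, 31.3% (30.4 to 32.3), than at SMC1-rich sites, 24.0% (23.1 to 24.9), while Pol2Ser2 was at 18.0% and 24.2%. CTCF was at 76.3% of the RAD21-rich and 44.1% of the SMC1-rich sites in HCT116 and at 95.2% and 57.1% in DKO. H3K27Ac was at 43.8% and 53.0% in HCT116 and at 20.4% and 66.2% in DKO. The directions for CTCF and H3K27Ac were those found with regions of either line.

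**Figure D2:**
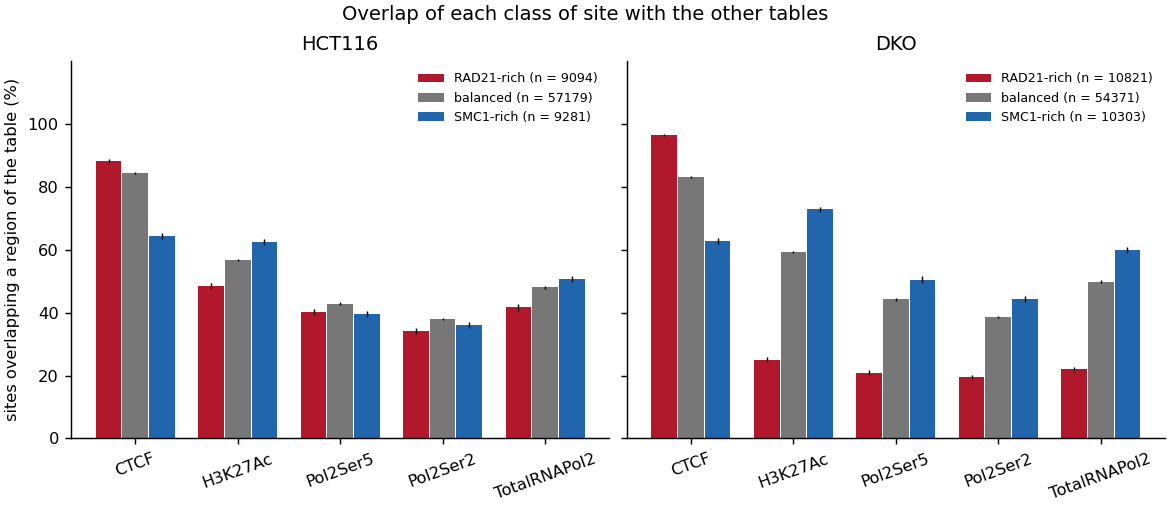
Bars give the percentage of RAD21-rich, balanced and SMC1-rich sites of each line that overlapped a region of each other table, called in either line, and error bars are Wilson 95% intervals. CTCF decreases from RAD21-rich to SMC1-rich sites in both lines, and H3K27Ac increases, from 48.4% to 62.4% in HCT116 and from 25.1% to 72.8% in DKO.

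The H3K27Ac contrast between RAD21-rich and SMC1-rich sites was present at mean percentiles below 80 in DKO and from 20 to 80 in HCT116. Sites were divided by the mean percentile of both subunits into bands of 20 points. In DKO H3K27Ac was at 21.3% of the RAD21-rich and 71.3% of the SMC1-rich sites of the lowest band, and at 23.7% and 70.9% in the band from 60 to 80. In HCT116 the lowest band had shares of 40.5% (36.9 to 44.1) and 41.3% (37.7 to 44.9), which overlap in their intervals. Balanced sites of that band had 35.1% (34.3 to 36.0), less than either. The middle band had 50.5% and 69.4%, with 62.9% at balanced sites. In the HCT116 band from 60 to 80 the shares were 63.0% (60.1 to 65.7) and 70.7% (68.4 to 72.9). Balanced sites had 61.0% (60.1 to 61.9) there, so RAD21-rich sites were not poorer in H3K27Ac than balanced sites. From 80 to 100 few sites were rich in either subunit: 39 RAD21-rich sites in HCT116, of which 87.2% (73.3 to 94.4) had H3K27Ac, against 84.9% (75.8 to 90.9) of 86 SMC1-rich sites, and 27 in DKO, of which 77.8% (59.2 to 89.4) had it, against 68.6% (61.4 to 75.0) of 175. At this level the H3K27Ac order was not the one seen below it, and the intervals overlap.

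CTCF was more frequent at RAD21-rich than at SMC1-rich sites in every band of both lines. In the lowest band of DKO it was at 93.0% of the RAD21-rich and 44.6% of the SMC1-rich sites, and in the highest at 100% (87.5 to 100) and 92.6% (87.7 to 95.6). In HCT116 it was at 79.8% and 58.8% in the lowest band and at 100% (91.0 to 100) and 87.2% (78.5 to 92.7) in the highest. Polymerase was less frequent at RAD21-rich than at SMC1-rich sites below 60 in HCT116 and below 80 in DKO. From 60 to 80 in HCT116 it was at 65.4% and 65.2%. From 80 to 100 it was at 84.6% (70.3 to 92.8) and 69.8% (59.4 to 78.5) in HCT116. In DKO it was then at 81.5% (63.3 to 91.8) and 57.1% (49.7 to 64.2). The polymerase order there was the reverse of that over all sites, and the intervals overlap.

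The combination of other tables at a site ordered the median rank difference in much the same way in both lines. Sites with CTCF alone stood on the RAD21 side: the median rank difference of these 30841 sites was 1.59 in HCT116, with the middle 50% of sites from -4.98 to 11.2, and 5.94 in DKO, from -1.37 to 18.2. The 4 combinations without CTCF stood on the SMC1 side. The 11341 sites with H3K27Ac and polymerase had medians of -4.68 in HCT116 and -7.66 in DKO, and the 3036 sites with H3K27Ac alone had -6.15 and -8.66. The 1680 sites with polymerase alone had -6.05 and -8.34, and the 2627 sites with none of these tables had -3.89 and -5.57. SMC1-side medians were thus found at sites without CTCF whether or not they carried H3K27Ac or polymerase.

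Where CTCF was present, further tables brought the median close to 0. The 8304 sites with CTCF and polymerase had medians of 0.23 in HCT116 and 1.43 in DKO, and the 8124 sites with CTCF and H3K27Ac had -0.34 and -0.33. The 33771 sites with CTCF, H3K27Ac and polymerase had 0.63 and -1.07, on opposite sides of 0 in the lines. These medians are small beside the spread of sites, and some change sign with the sites kept: with summits within 50 bp the CTCF and polymerase median was -0.23 in HCT116, and with both regions called in both lines the CTCF and H3K27Ac median was 0.36 in DKO. In shares, 22.6% of the sites with CTCF alone were RAD21-rich in DKO and 4.55% SMC1-rich, while at sites with H3K27Ac alone these were 1.15% and 23.4%. In HCT116 the same shares were 12.3% and 6.55% at CTCF alone, and 4.31% and 19.3% at H3K27Ac alone.

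Levels differ between these combinations and stand beside the ranks. In HCT116 the median reads of RAD21 and SMC1 were 40 and 35 at sites with CTCF alone, 69 and 54 with CTCF, H3K27Ac and polymerase, 27 and 32 with H3K27Ac alone, and 20 and 26 with no other table. In DKO they were 68 and 54, 74 and 73, 41 and 47, and 37 and 41. Summits were 33 bp apart in the median at sites with CTCF alone and 92 bp apart at sites with H3K27Ac alone.

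**Figure D3:**
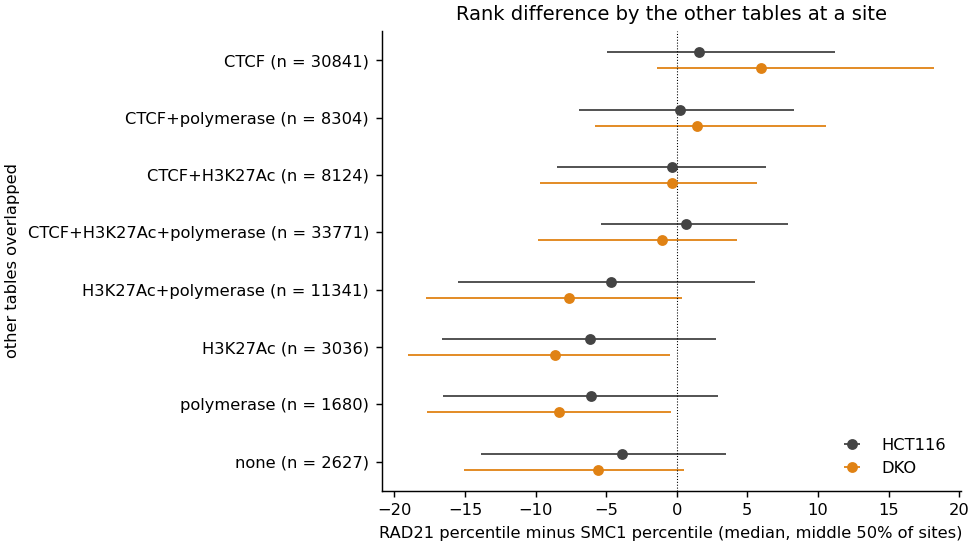
Points give the median rank difference in percentile points, RAD21 minus SMC1, of sites with each combination of CTCF, H3K27Ac and any polymerase region, in HCT116 and DKO, and lines span the middle 50% of sites. Sites with CTCF alone lie to the right of 0, and the 4 combinations without CTCF lie to the left, further in DKO than in HCT116.

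The amount of each other factor was then set beside the rank difference, in deciles of the sites ordered by the density of the overlapping region. Pol2Ser2 density had the steadiest relation. From the lowest to the highest decile the median rank difference went from 2.16 to -2.51 in HCT116 and from 1.44 to -7.80 in DKO, with a step down at every decile. In DKO 12.2% of the sites in the lowest decile were RAD21-rich and 5.95% SMC1-rich, and in the highest these were 1.71% and 19.0%. In HCT116 they were 14.5% and 5.50%, and 4.99% and 14.3%. Sites with the most elongating polymerase thus stood lower in the RAD21 order than in the SMC1 order.

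Behind this, SMC1 density rose slightly with Pol2Ser2 density where RAD21 density did so less. Across the 36900 sites with a Pol2Ser2 region, rho with Pol2Ser2 density was -0.0022 for RAD21 and 0.098 for SMC1 in HCT116, and 0.090 and 0.21 in DKO. These correlations are weak, and the rho of the rank difference with Pol2Ser2 density was -0.18 in HCT116 and -0.24 in DKO. At the subset that also overlapped CTCF the median rank difference went from 2.60 in the lowest to -1.26 in the highest decile in HCT116 and from 2.55 to -6.06 in DKO, so the relation was not limited to sites without CTCF.

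H3K27Ac, Pol2Ser5 and CTCF density had no such steady relation. The median rank difference over deciles of H3K27Ac density stayed between -0.97 and 1.13 in HCT116, and in DKO it was 0.85 in the lowest decile and between -4.82 and -0.33 in the others. Over deciles of Pol2Ser5 density it was -1.51 in the 5th and 2.50 in the 8th decile in HCT116, and -5.11 and -1.54 in DKO. In the 8th decile of HCT116 12.9% of sites were RAD21-rich and 3.73% SMC1-rich. The rho of the rank difference with Pol2Ser5 density was 0.097 in HCT116 and -0.025 in DKO. Over deciles of CTCF density the median rank difference peaked in the middle: in the 6th decile it was 5.18 in HCT116 and 7.10 in DKO, and in the 10th it was -0.05 and -0.12. The share of RAD21-rich sites was largest in the 6th decile of HCT116, 19.4%, and in the 5th decile of DKO, 26.3%, and fell to 2.71% and 1.73% in the 10th. Near the top of both orders percentiles leave little room for a difference, and the values of the 10th decile carry that limit. The densities of both subunits rose with CTCF density to a like degree, with rho of 0.65 for RAD21 and 0.63 for SMC1 in HCT116 and 0.68 and 0.65 in DKO.

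**Figure D4:**
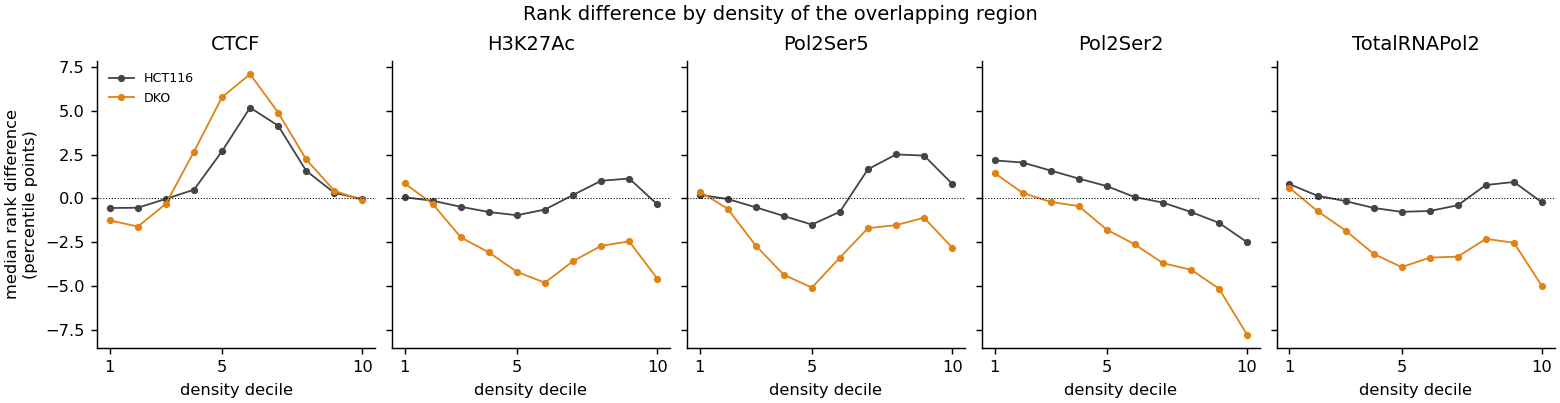
Each panel orders the sites that overlap a region of 1 table into deciles by that region's density in the same line (horizontal axis, 1 the lowest) and plots the median rank difference in percentile points. The Pol2Ser2 curve falls from 2.16 to -2.51 in HCT116 and from 1.44 to -7.80 in DKO, the CTCF curve peaks in the middle deciles, and the other curves are not steady.

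Sites rich in 1 subunit in HCT116 were more often rich in the same subunit in DKO than sites at large, but most were not. Of the HCT116 RAD21-rich sites 2910, or 32.0% (31.0 to 33.0), were also RAD21-rich in DKO, beside 10.9% of all sites. They were 26.9% of the DKO RAD21-rich sites. Of the HCT116 SMC1-rich sites 3040, or 32.8% (31.8 to 33.7), were also SMC1-rich in DKO, beside 10.3% of all sites, and were 29.5% of the DKO SMC1-rich sites. Opposite calls were fewer: 466 sites, or 5.12% of the HCT116 RAD21-rich sites, were SMC1-rich in DKO, beside 10.3% of all sites. The reverse held at 214 sites, or 2.31% of the HCT116 SMC1-rich sites, beside 10.9% of all sites. Spearman's rho of the rank difference in HCT116 and in DKO was 0.35. The lines share the regions but no library, while the same antibodies were used in both. The densities were normalized between the lines, so each also depends on the reads of the other line. With ranks from the recovered reads instead, 31.6% of the RAD21-rich and 32.1% of the SMC1-rich sites of HCT116 were in the same class in DKO.

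The sites that were RAD21-rich in both lines were mostly CTCF sites away from active marks. Of the 2910 sites, 67.5% (65.8 to 69.2) had CTCF without H3K27Ac or polymerase, against 30.9% of all pairs, and only 1.51% had H3K27Ac without CTCF, against 14.4% of all pairs. The 3040 sites that were SMC1-rich in both were more mixed: 20.5% had CTCF without H3K27Ac or polymerase, 36.3% had CTCF with H3K27Ac, and 27.9% (26.3 to 29.5) had H3K27Ac without CTCF. Over all pairs these shares were 30.9%, 42.0% and 14.4%. The 466 sites that went from RAD21-rich in HCT116 to SMC1-rich in DKO overlapped H3K27Ac at 80.5% and CTCF at 70.0%. The 214 sites with the reverse pattern overlapped H3K27Ac at 28.5% and CTCF at 85.0%. Over all pairs H3K27Ac was at 56.4% and CTCF at 81.3%.

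SMC1-rich sites also differed in the shape of their regions. Their summits lay 122 bp apart in the median in HCT116 and 143 bp in DKO, against 53 and 36 bp at RAD21-rich and 40 and 41 bp at balanced sites. Their RAD21 regions were narrow, with median widths of 331 and 320 bp, against 609.5 and 699 bp at RAD21-rich sites. Fewer of these RAD21 regions had been called in both lines, 24.7% and 29.5% against 80.02% and 85.3%. In turn the SMC1 regions were narrower at RAD21-rich sites, 325 and 367 bp against 448 and 486 bp at SMC1-rich sites. SMC1 regions called in both lines were 38.6% and 60.0% at RAD21-rich sites, against 46.5% and 41.0%. The classes were cut by the densities of these regions, so widths and calls only describe them. Each region's reads were counted in a window of its own, and how far the 2 windows of a pair coincide is not known, since their centre is not given. With summits within 50 bp the H3K27Ac gap was larger, -24.2 points in HCT116 and -62.6 in DKO, while the share of HCT116 SMC1-rich sites that were SMC1-rich in DKO fell to 19.5%. A further 7939 RAD21 regions shared their SMC1 region with another RAD21 region. With each region paired only once, that share was 23.4% and the H3K27Ac gap -16.3 and -51.5 points.

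Chromosome X stood apart from the autosomes in both lines. Of its 1729 sites 29.7% were RAD21-rich in HCT116 and 26.6% in DKO, against 8.76% and 10.6% of the 97989 autosomal sites, and 1.79% and 2.60% were SMC1-rich, against 9.44% and 10.5%. In HCT116 the median site of chromosome X had 43 RAD21 reads, beside 44 on the autosomes, but 31 SMC1 reads, beside 41. In DKO it had 49 RAD21 reads, beside 63, and 39 SMC1 reads, beside 61. The same order held within the 3 makeups compared in HCT116: 32.3% of sites with CTCF without H3K27Ac or polymerase were RAD21-rich on chromosome X, against 11.8% on the autosomes, as were 31.0% against 8.00% with CTCF and H3K27Ac, and 20.2% against 6.25% with H3K27Ac without CTCF. In DKO these were 39.5% against 22.1%, 15.8% against 5.59%, and 3.11% against 2.18%.

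When percentiles were taken within each chromosome, 11.6% of the chromosome X sites were RAD21-rich and 10.4% SMC1-rich in HCT116, and 13.9% and 14.0% in DKO. The H3K27Ac gap under these ranks was -12.0 points in HCT116 and -43.0 in DKO, so its direction did not rest on chromosome X. Among autosomes the SMC1 side was most populated in HCT116 on chromosome 17, with 13.2% SMC1-rich and 5.43% RAD21-rich, and on chromosome 8, with 12.4% and 6.08%. In DKO it was most populated on chromosome 22, with 15.8% and 4.97%, and chromosome 19, with 14.4% and 5.59%, while chromosome 4 had 6.47% SMC1-rich and 18.1% RAD21-rich. Chromosome 4 had H3K27Ac at 42.4% of its sites, chromosome 22 at 70.4% and chromosome 19 at 78.5%, beside 56.7% of all autosomal sites. Chromosome 17 had it at 72.8%, but chromosome 8 at only 49.7%. In HCT116 chromosome 19 was 9.46% SMC1-rich, beside 9.44% of autosomal sites. Median reads in HCT116 were 52 RAD21 and 50 SMC1 on chromosome 17 and 48 and 47 on chromosome 8, beside 44 and 41. The parts of H3K27Ac content and of reads in these chromosome values were not tested.

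Neighbouring sites had alike rank differences over short distances. The Spearman correlation between adjacent sites less than 1 kb apart was 0.41 in HCT116 and 0.38 in DKO, a distance at which counting windows overlap. From 1 to 2 kb it was 0.12 and 0.11, and from 20 to 100 kb 0.075 and 0.11. Beyond 1 kb adjacent sites thus shared little of their rank difference.

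Single sites show what the classes look like. The sites were taken by the size of the smaller of the 2 lines' rank differences. Only pairs with midpoints within 100 bp, regions of 2 kb or less and at least 40 reads of RAD21 plus SMC1 in each line were used. They were chosen for this difference, so their values are a description. Coordinates are those of the RAD21 region in build hg19 as deposited. The gene, exon or intron at each position was not annotated here.

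The first 8 RAD21-rich sites all had a CTCF region and no H3K27Ac or polymerase region. The site chr18:43303364-43303958 had 98 RAD21 and 20 SMC1 reads in HCT116 and 151 and 34 in DKO, a rank difference of 69.9 and 72.7 points, and its summits were 176 bp apart. The site chr11:83530728-83531665 had 61 and 20 reads in HCT116 and 100 and 34 in DKO, with differences of 55.0 and 61.1, and its summits were 22 bp apart. The site chr2:147418882-147419608, with summits 6 bp apart, had 54 and 16 reads in HCT116 and 86 and 17 in DKO, with differences of 54.8 and 66.5. At each of these 3 sites RAD21 stood above the median of the paired sites and SMC1 below it, in both lines. Differences of this size require this, so it is no further result. CTCF reads there were 28 in HCT116 and 35 in DKO at the first site, 168 and 108 at the second, and 131 and 55 at the third.

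The first 8 SMC1-rich sites were of mixed makeup. The site chr17:27696624-27698342 led them, with 28 RAD21 and 110 SMC1 reads in HCT116 and 41 and 159 in DKO, differences of -63.6 and -71.9, but its summits lay 1128 bp apart. The site chr17:29232687-29234291, with H3K27Ac and CTCF, was of the same kind, with summits 875 bp apart. Their midpoints were within 100 bp by the rule, and since the centre of a counting window is not known, it is not known how far the windows of the subunits coincide there. Closer summits, 42 bp apart, were at chr14:93160413-93160652, with 16 RAD21 and 52 SMC1 reads in HCT116 and 45 and 82 in DKO, differences of -57.4 and -46.6. This site had CTCF, at 36 and 22 reads, and Pol2Ser2, at 66 and 41 reads. The site chr16:87032014-87032222, with summits 69 bp apart and no CTCF or H3K27Ac region, had 11 and 44 reads in HCT116 and 51 and 91 in DKO, differences of -52.4 and -44.3. Of the 8 sites, 5 had a CTCF region and 3 an H3K27Ac region.

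**Figure D5:**
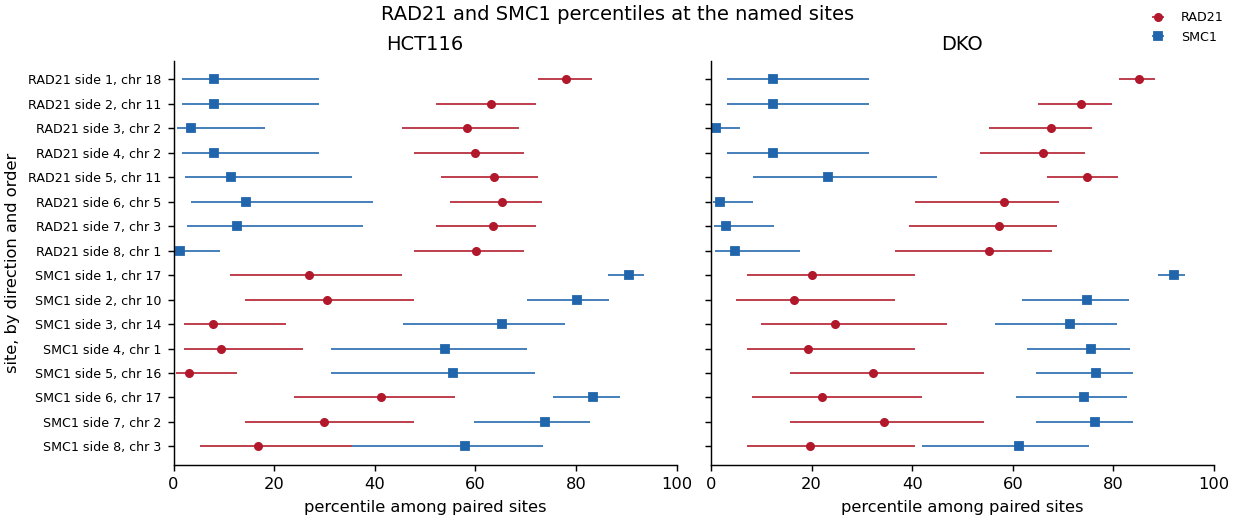
Points give the RAD21 and SMC1 percentile of the first 8 sites of each direction in HCT116 and DKO, and lines give the percentiles reached by the exact 95% counting interval of the reads. The points of the subunits are apart at all 16 sites in both lines, but the intervals are wide where reads are few and overlap at SMC1 side site 8 in HCT116, and at SMC1 side sites 1 and 6 the summits lie 1128 and 875 bp apart.

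Exceptions to the class pattern were also present. Among sites with H3K27Ac and no CTCF region, chr10:104403446-104403703 was RAD21-rich, with 104 RAD21 and 35 SMC1 reads in HCT116 and 92 and 50 in DKO, and differences of 41.4 and 35.9. It carried strong H3K27Ac, with 1723 reads in HCT116 and 1975 in DKO, and its summits were 10 bp apart. The site chr2:54197199-54197917, with summits 267 bp apart, was also RAD21-rich, with 84 and 35 reads in HCT116, 63 and 31 in DKO, and differences of 36.4 and 42.8. The same makeup gave SMC1-rich sites such as chr3:184166627-184166830, with 23 and 51 reads in HCT116, 49 and 79 in DKO, and differences of -46.1 and -38.2. Among sites with CTCF and H3K27Ac, chr17:4624955-4625213 was SMC1-rich with summits 4 bp apart, with 24 and 49 reads in HCT116 and 27 and 61 in DKO, differences of -41.1 and -45.5. In the same combination chr10:97454394-97454642 was RAD21-rich, with 57 and 17 reads in HCT116, 76 and 34 in DKO, and differences of 56.1 and 49.3. The combination of tables therefore did not fix the direction of a single site.

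Named sites with no region of the other tables had point values on both sides, with larger differences on the SMC1 side in HCT116. The site chr2:238475535-238475740 had 17 RAD21 and 49 SMC1 reads in HCT116 and 45 and 71 in DKO, differences of -52.5 and -37.3. The counting intervals of its reads allowed differences from -73.3 to -16.1 in HCT116 and from -65.7 to 3.36 in DKO. On the RAD21 side chr20:43088985-43089247 had 42 and 24 reads in HCT116 and 87 and 38 in DKO, differences of 31.7 and 50.4. Its counting intervals allowed differences from -8.88 to 57.1 in HCT116 and from 17.2 to 71.1 in DKO. The third site of this kind on that side, chr20:53260506-53260991, reached only 18.7 points in HCT116 and 20.3 in DKO. Its counting intervals allowed differences from -24.0 to 47.6 in HCT116 and from -15.1 to 48.0 in DKO. Where such a range holds both signs, counting error leaves the direction of that site in that line open.

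The 5 strongest sites were taken by the highest mean percentile of both subunits in both lines. Both subunits thus stood at the top of their orders by this choice. The highest, chr17:48069996-48077104, had 1083 RAD21 and 651 SMC1 reads in HCT116 and 1030 and 724 in DKO, with 754 and 991 CTCF reads. All 5 highest sites had CTCF and H3K27Ac regions. Their rank differences were 0.0 points to 1 decimal in both lines, which also follows from the choice. Read numbers of RAD21 and SMC1 come from separate libraries and are not comparable as levels.

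Outside the pairing, 80337 RAD21 regions had no SMC1 region and 43592 SMC1 regions had no RAD21 region. The unpaired RAD21 regions overlapped CTCF at 43.5% and H3K27Ac at 37.5%, and the unpaired SMC1 regions at 25.0% and 39.1%. The paired RAD21 regions had 81.3% and 56.4%. Unpaired regions were weak, with medians of 22 RAD21 reads in HCT116 and 34 in DKO and of 26 and 36 SMC1 reads. Few had been called in both lines, 9.36% and 2.38%, against 61.4% of the paired RAD21 regions. At the edge of the pairing rule, 1179 pairs shared 1 to 25 bp, and 1033 unpaired RAD21 regions had an SMC1 region within 25 bp. The former had a median of 28 RAD21 reads in HCT116 and 44 in DKO, and the latter 29 and 45.

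Pairs with no read of either subunit were counted because DKO carries disrupted genes. In DKO 1 pair was without reads, chr20:31377510-31378789, with 174 RAD21 and 151 SMC1 reads in HCT116 and 0 of both in DKO, and in HCT116 0 pairs were. A count of 0 allows up to 3 reads in such a library. Missing DNA and absent cohesin cannot be told apart from these tables, and whether the site lies in a disrupted gene was not looked up because no annotation of build hg19 was used.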

How the data were processed

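The submitters' processing notes name BWA, MACS2 and build hg19 for the RAD21 and SMC1 libraries, sequenced as single-end reads of 75 nt. Each table of the 7 lists regions called in either line or in both, per the file headers. The signal used is the authors' normalized read density in each line. The deposited log2 columns M and A were used to recover the whole reads (within 0.05 of a whole number), with 1 read added per count, in windows of 1 kb for RAD21, SMC1 and CTCF and 2 kb for the others. The authors' deposited p-value was not used. The point on which a window is centred is not given in the sources used here. The densities were normalized between the lines, separately for each target, so only ranks within a library were compared. Depth is given as reads per window, since library totals were not used here, and 0 columns belonged to other samples. TotalRNAPol2 was grouped by its title, while its antibody label names Pol2Ser5. The 2 input libraries were not used here.

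Regions of different tables were matched at 1 bp or more, and percentiles were computed with Python 3.11.15, numpy 2.4.6, pandas 2.3.3 and scipy 1.17.1. The functions were tested on simulated data. Sites were named by the smaller of the 2 lines' rank differences in the same direction, the first 8 each way and the first 3 each way in 4 makeups, besides the 5 highest, passing over sites within 10 kb. The gene lists and cell type markers planned for naming sites could not be placed, since no annotation of build hg19 was used. Sites, lists and thresholds were chosen with earlier results of these data known. The alternatives were 11 planned and 4 added after seeing the data. Intervals are Wilson or exact Clopper-Pearson at 95% and cover counting error only, since PCR reads are not independent molecules.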

Additional observations from a re-analysis of the deposited data

Results flagged for a closer look

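The median rank difference of the 33771 sites with CTCF, H3K27Ac and polymerase had opposite signs in the lines, 0.63 percentile points in HCT116 and -1.07 in DKO. Both medians are small beside the middle 50% of sites, which ran from -5.39 to 7.85 in HCT116 and from -9.82 to 4.26 in DKO, and the difference was not tested.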

How the results depend on the processing

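No CTCF, H3K27Ac or polymerase gap, taken over all levels, changed direction under any alternative run. Within the band of mean percentiles from 80 to 100 the H3K27Ac and polymerase orders were reversed in both lines, as given above. A gap is the RAD21-rich minus the SMC1-rich share in percentage points, a kept share is the percentage of HCT116 rich sites rich in the same subunit in DKO, and paired values give HCT116 first and DKO second. Of the values, 91 moved beyond their counting interval (an approximate 95% interval over sites for rho, 1.5 times for a count) and are given here, 63 did not, and neither did 80 rank differences of single named sites. With ranks from the recovered reads the CTCF gap was 26.1 in HCT116, and the H3K27Ac and polymerase gaps were -50.4 and -39.7 in DKO. With midpoints within 100 bp, rho was 0.852 in HCT116, and there were 5233 and 6079 RAD21-rich and 5128 and 5625 SMC1-rich sites. The CTCF gaps were then 25.7 and 37.1, the H3K27Ac gaps -17.6 and -53.8, the polymerase gaps -12.1 and -43.5, and the kept shares 30.3% for RAD21-rich and 21.8% for SMC1-rich sites. With one-to-one pairs rho was 0.871 and 0.848, the CTCF gaps were 26.2 and 35.5, the H3K27Ac gaps -16.3 and -51.5, the polymerase gaps -10.5 and -41.3, and the kept SMC1-rich share 23.4%. With both regions called in both lines rho was 0.86 and 0.855, and there were 3523 and 4022 RAD21-rich and 3324 and 3753 SMC1-rich sites. The CTCF gaps were then 17.7 and 15.9, the H3K27Ac gaps -16.8 and -64.9, the polymerase gaps -12.7 and -56.6, and the kept SMC1-rich share 42.1%. With at least 40 reads of RAD21 plus SMC1 in the line rho was 0.814 and 0.82. With regions of 2 kb or shorter rho was 0.826 and 0.797, and the kept SMC1-rich share was 31.5%. With summits within 50 bp rho was 0.921 and 0.899, and there were 2405 and 3536 RAD21-rich and 2267 and 2988 SMC1-rich sites. The CTCF gap was then 28.03 in HCT116, the H3K27Ac gaps were -24.2 and -62.6, the polymerase gaps -16.4 and -51.8, and the kept shares 29.8% for RAD21-rich and 19.5% for SMC1-rich sites. With ranks within each chromosome the CTCF gap was 32.8 in DKO, the H3K27Ac gaps were -12.02 and -43.0, the polymerase gap was -32.9 in DKO, and the kept RAD21-rich share 30.3%. With only rich sites outside the counting interval there were 5935 and 6658 SMC1-rich sites, the CTCF gap was 26.8 in HCT116, and the H3K27Ac and polymerase gaps were -54.9 and -42.7 in DKO. With overlaps of at least 50% of the shorter region the CTCF gaps were 26.4 and 38.2, the H3K27Ac gaps -12.1 and -45.1, and the polymerase gaps -6.47 and -35.7. At a threshold of 10 points the CTCF gaps were 19.8 and 28.6, the H3K27Ac gaps -11.0 and -38.2, the polymerase gaps -6.99 and -30.4, and the kept shares 41.7% for RAD21-rich and 45.5% for SMC1-rich sites. At 30 points the gaps in DKO were 36.0 for CTCF, -53.6 for H3K27Ac and -40.1 for polymerase, and the kept shares 25.8% and 30.9%. With other tables called in the ranked line the CTCF gaps were 32.3 and 38.1, the H3K27Ac gaps -9.18 and -45.8, and the polymerase gaps -1.69 and -39.0.

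Comparing sites within 10 bins of the mean percentile moved no gap beyond its counting interval. The limits on summits, on ranks within chromosomes, on the counting interval and on the line of the other tables were chosen after seeing the data. Fewer sites were ranked or counted under the filters on distance, calls and counting error, and the cause of the other moves was not tested. No paired analysis was possible because each group has 1 library and the values come from no test. With medians of 41 to 63 reads per site and subunit, depth limits the class of a single site, and no replicate error could be given.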
